A study of Mus musculus with 12 samples.

Results

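Immediate early genes are genes whose transcription starts within minutes of a signal without new protein synthesis. The set described here holds 10 of them that respond to cyclic AMP and to the transcription factor CREB. They are Fos, Fosb, Jun, Junb, Egr1, Nr4a1, Nr4a2, Nr4a3, Dusp1 and Crem, found by gene symbol among the 23284 gene rows of each RNA-seq count table. The tumours are mouse neuroendocrine thyroid carcinomas from a genetically engineered model. The tables cover 5 tumours labelled Rb1/Trp53/Crebbp (RPC tumours below) and 7 labelled Rb1/Trp53 (RP tumours), so both groups carry the Rb1 and Trp53 alleles and the labels differ by Crebbp. Crebbp encodes CBP, the histone acetyltransferase that binds phosphorylated CREB, and the series asks which genes it regulates. The labels leave out the Cre driver, the exact alleles, the ages of the mice and whether each tumour came from its own mouse. The p-values therefore measure only the spread between these tumours, which may in part be technical.

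Hormones that raise cyclic AMP release the catalytic subunits of protein kinase A, which phosphorylate CREB at its target promoters. Phosphorylated CREB recruits CBP and its relative p300, and immediate early genes such as Fos and the NR4A genes are classic targets. Many of the same genes also answer to the ERK kinases through serum response factor, and their RNAs are short-lived. C cells of the thyroid, which make calcitonin, are known to respond to cyclic AMP.

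The depth was 9.14 to 20.5 M counts in the RPC tumours and 9.11 to 57.3 M counts in the RP tumours, so 1 count equalled 0.0472 to 0.0916 CPM in the RPC and 0.0167 to 0.104 CPM in the RP tumours, where CPM is the count per M of TMM-scaled library. Total Crebbp counts did not separate the groups: Crebbp averaged 53.9 ± 4.19 CPM in the RPC tumours (SD, n = 5) and 54.6 ± 20.0 CPM in the RP tumours (SD, n = 7), with log2 fold change -0.02 ± 0.20 (SE). In RPC tumours 1 to 5 Crebbp had 60.8, 52.4, 50, 51.8 and 54.6 CPM, against 98.9, 41.0, 54.8, 43.3, 45.6, 49.5 and 49.3 CPM in RP tumours 1 to 7. A count over a whole gene need not show the loss of some exons, so the genotype labels could not be checked and are used as labels. Trp53 counts were lower in the RPC tumours, at 16.1 ± 4.15 CPM, than in the RP tumours, at 28.9 ± 4.70 CPM (SD, n = 5 and 7, edgeR adjusted p = 0.00918). C cell markers were detected in every tumour: none of the 10 C cell and neuroendocrine marker genes was at 0 in any of them. Calca, the calcitonin gene, averaged 67620 ± 44110 CPM in RPC tumours and 156800 ± 54690 CPM in RP tumours (SD, n = 5 and 7, adjusted p = 0.103). Chga, the chromogranin A gene, averaged 4071 ± 2545 CPM in RPC and 7124 ± 2189 CPM in RP tumours (SD, n = 5 and 7, adjusted p = 0.154).

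**Figure D1:**
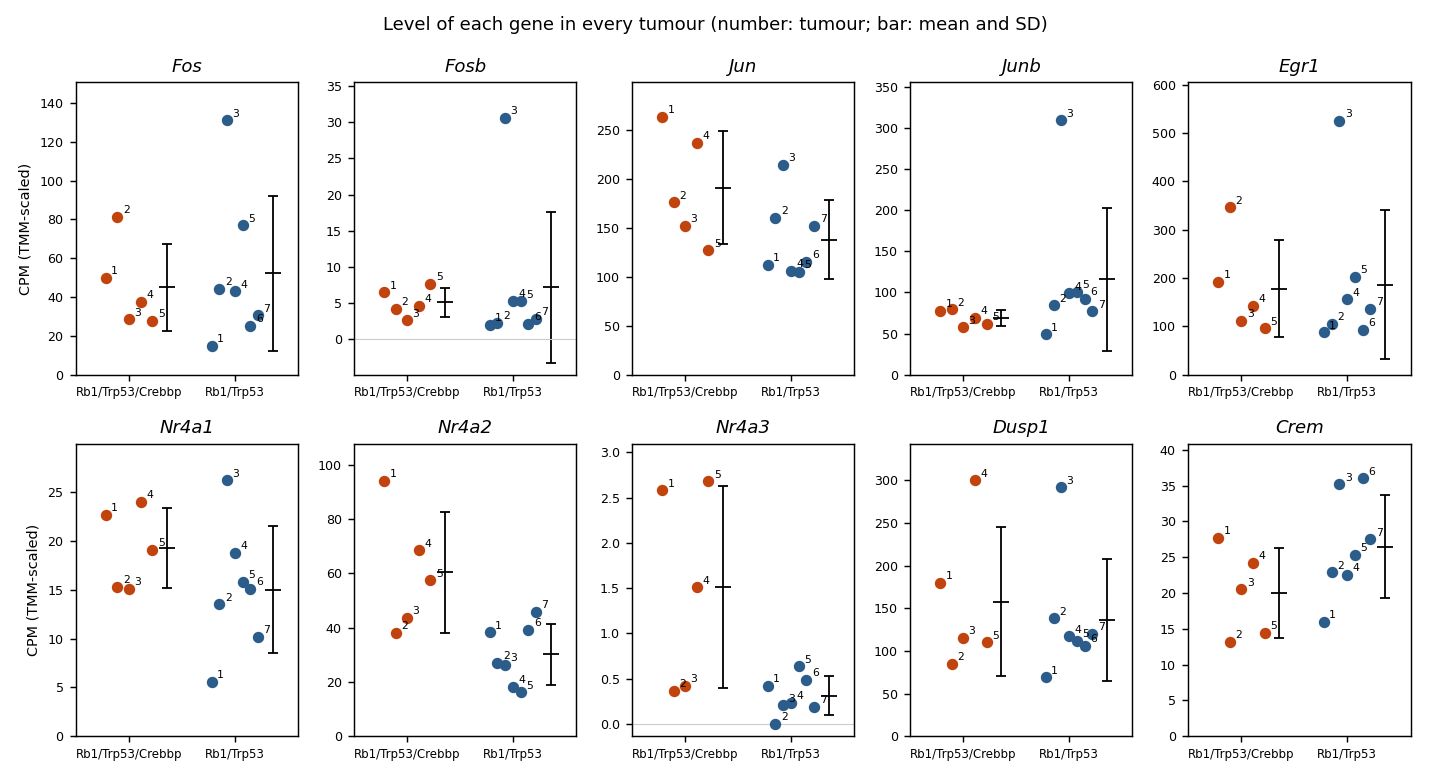
Normalised level (CPM, linear axes) of the 10 genes in each tumour, with 1 panel per gene and the RPC tumours left of the RP tumours; each point is 1 tumour and the bars give the mean and SD. The point far above the rest in the RP group for Fosb, Junb, Egr1 and Dusp1 is RP tumour 3, at 30.6, 309, 525 and 292 CPM.

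Promoter sequence is shown for the genes the results turn on: Nr4a2, the single gene of the set that passed the test, its relative Nr4a3, the AP-1 genes Fos and Junb, and Dusp1, whose window holds a full cyclic AMP response element (CRE). Each is the 250 bases before the gene's start in RefSeq on GRCm38.p6, read 5′ to 3′ on the gene's strand, in lower case with every short CRE motif (TGACG, or its reverse complement CGTCA) in capitals.
Nr4a2: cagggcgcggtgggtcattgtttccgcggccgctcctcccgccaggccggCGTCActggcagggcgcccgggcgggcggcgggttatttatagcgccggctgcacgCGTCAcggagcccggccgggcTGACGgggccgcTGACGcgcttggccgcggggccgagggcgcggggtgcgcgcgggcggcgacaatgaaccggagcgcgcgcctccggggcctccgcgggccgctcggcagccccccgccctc
Nr4a3: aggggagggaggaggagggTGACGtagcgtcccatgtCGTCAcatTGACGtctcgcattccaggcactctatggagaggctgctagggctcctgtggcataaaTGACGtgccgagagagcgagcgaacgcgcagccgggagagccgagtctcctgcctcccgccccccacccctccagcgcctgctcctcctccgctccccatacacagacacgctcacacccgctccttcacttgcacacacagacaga
Fos: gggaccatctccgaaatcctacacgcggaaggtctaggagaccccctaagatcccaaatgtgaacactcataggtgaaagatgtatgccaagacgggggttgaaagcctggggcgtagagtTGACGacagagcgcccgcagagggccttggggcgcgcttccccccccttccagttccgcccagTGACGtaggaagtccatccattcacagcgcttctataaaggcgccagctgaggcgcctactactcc
Junb: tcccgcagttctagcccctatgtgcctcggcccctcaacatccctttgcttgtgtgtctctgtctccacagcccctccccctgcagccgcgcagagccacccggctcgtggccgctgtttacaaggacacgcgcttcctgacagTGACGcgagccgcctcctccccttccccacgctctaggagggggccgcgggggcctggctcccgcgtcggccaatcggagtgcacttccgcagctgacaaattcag
Dusp1: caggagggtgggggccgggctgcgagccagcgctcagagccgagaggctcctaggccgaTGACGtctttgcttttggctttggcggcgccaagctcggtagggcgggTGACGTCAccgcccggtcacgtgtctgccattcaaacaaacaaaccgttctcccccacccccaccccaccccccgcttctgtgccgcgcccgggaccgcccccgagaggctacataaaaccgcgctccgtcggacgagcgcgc
The windows lie at chr2:57124004-57124253 (minus strand) for Nr4a2, chr4:48045055-48045304 (plus strand) for Nr4a3, chr12:85473640-85473889 (plus strand) for Fos, chr8:84978749-84978998 (minus strand) for Junb and chr17:26508473-26508722 (minus strand) for Dusp1, each just upstream of the annotated start. The counts were made on mm9, and the windows were matched to the genes by symbol.

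Of the 10 symbols, 10 matched RefSeq and 8 had a promoter in the table used. The short motif TGACG, searched on both strands, was present in 7 of those 8 windows, all but that of Jun, against 17.8% of 32851 promoters of the same length. The full element TGACGTCA, which contains overlapping short motifs, was found in Dusp1 alone of the 8, against 1.55% of all promoters. Nr4a1, Nr4a2 and Nr4a3 each held 4 short motifs, Fos held 2, Fosb and Junb 1 each, and Dusp1 held 3, of which 2 form its CRE. The AP-1 site TGACTCA was in none of the 8 windows, against 4.46% of all promoters. The windows of the set are rich in G and C, at 58.4% in Fos and 80.0% in Nr4a2, and the shares are not adjusted for base composition. A match of letters is a description of the window and does not show that a factor binds.

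Across the set, 1 of the 9 genes that passed the low-count filter was called between the genotypes, at an adjusted p under 0.05 by edgeR's quasi-likelihood test: Nr4a2, higher in the RPC tumours. That is a share of 11.1%, beside 18.3% of the 14989 genes tested (9.64% higher and 8.61% lower); with 9 genes the shares are near each other, and their difference was not tested. None of the 9 was called lower by edgeR, DESeq2 or limma's voom. At an unadjusted p under 0.05, edgeR had none lower, while DESeq2 and voom each had 1, Junb. On the higher side edgeR had 1 at that threshold, and DESeq2 and voom had 2 each. Over all 14989 genes tested, 5336 were under it with edgeR, 5747 with DESeq2 and 7668 with voom. In all 10 genes the CPM ranges of the 2 groups overlapped, whereas the ranges of 6.26% of all genes tested did not. The median log2 fold change of the 9 was -0.07, beside -0.02 over all genes tested. Per kilobase of the longest transcript, the levels (RPC median then RP median) ran from 57.6 and 58.9 CPM per kb for Dusp1, through 55.1 and 35.9 for Jun, 47.1 and 44.9 for Egr1, 38.3 and 51.1 for Junb, 17.8 and 20.4 for Fos, 16.1 and 7.59 for Nr4a2, 7.72 and 6.10 for Nr4a1 and 6.99 and 8.63 for Crem, to 1.22 and 0.754 for Fosb and 0.264 and 0.0405 for Nr4a3. In the RPC tumours most neighbours in that order overlapped in their ranges, but Nr4a2 at 10.7 to 26.3 CPM per kb lay above Nr4a1 at 6.09 to 9.68, Crem at 4.5 to 9.46 above Fosb at 0.699 to 2.03, and Fosb above Nr4a3 at 0.0641 to 0.468. In the RP tumours the one gap between neighbours was Fosb at 0.52 to 8.09 CPM per kb above Nr4a3 at 0 to 0.111.

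The AP-1 genes encode the subunits of the AP-1 transcription factor, with FOS and FOSB pairing with JUN or JUNB. Fos had 49.8, 81.5, 28.6, 37.5 and 27.7 CPM in RPC tumours 1 to 5, against 14.8, 44.4, 131, 43.0, 76.9, 25.3 and 30.6 CPM in RP tumours 1 to 7. Its lowest and highest tumours were both RP tumours, 1 and 3, and lay 8.86-fold apart. The genotype difference was small beside that spread, with a mean of 45.01 ± 22.2 CPM in RPC and 52.3 ± 39.9 CPM in RP tumours (SD, n = 5 and 7), a difference of -0.22 ± 0.48 (log2 ± SE) and an adjusted p of 0.772. Without RP tumour 3 the Fos difference was 0.19 ± 0.39. Fosb, a less abundant partner, had 6.49, 4.22, 2.64, 4.62 and 7.68 CPM in the RPC tumours, against 1.97, 2.28, 30.6, 5.32, 5.26, 2.19 and 2.85 CPM in the RP tumours. The Fosb difference of -0.48 ± 0.69 (log2 ± SE, adjusted p = 0.646) rested on RP tumour 3, without which it was 0.61 ± 0.35 in the other direction.

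Jun, whose product is the common partner of FOS, had 263, 176, 152, 237 and 127 CPM in the RPC tumours, against 112, 160, 214, 106, 105, 115 and 152 CPM in the RP tumours. Its log2 fold change was 0.47 ± 0.22 (SE), unadjusted p = 0.0504 and adjusted p = 0.141. Without RP tumour 3, which has the highest Jun level among the RP tumours, it was 0.61 ± 0.19 and was called (adjusted p = 0.0405). Junb, which can restrain JUN, had 77.7, 79.4, 57.8, 69.4 and 61.9 CPM in the RPC tumours, against 49.2, 84.3, 309, 99.1, 101, 92.5 and 77.0 CPM in the RP tumours. The RPC values were tightly grouped, and 5 of the 7 RP tumours lay above all of them. With all tumours the difference was -0.74 ± 0.37 (log2 ± SE, adjusted p = 0.169), and without RP tumour 3 it was -0.28 ± 0.17 (adjusted p = 0.238). With RP tumours 1 and 3 both left out, an alternative chosen after seeing the data, it was -0.39 ± 0.11 and was called (adjusted p = 0.0204).

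Egr1, an early zinc finger transcription factor, had 192, 346, 112, 143 and 96.4 CPM in the RPC tumours, against 87.5, 105, 525, 156, 203, 92.8 and 136 CPM in the RP tumours. RP tumour 3 was again highest and RP tumour 1 lowest. The means were 178 ± 101 CPM in RPC and 187 ± 155 CPM in RP tumours (SD, n = 5 and 7), a difference of -0.07 ± 0.47 (log2 ± SE, adjusted p = 0.933). Without RP tumour 3 it was 0.45 ± 0.33 (adjusted p = 0.323), and without RPC tumour 3, 4 or 5 it lay between 0.00 and 0.08.

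**Figure D2:**
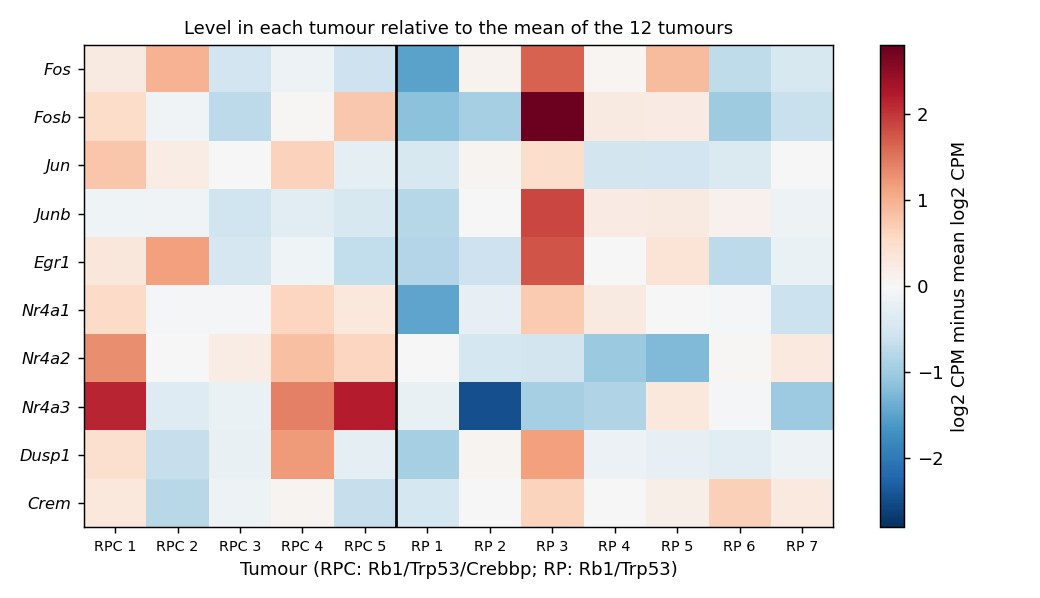
Log2 CPM of each gene in each tumour minus its mean over the 12 tumours (colour, red above and blue below; rows are genes, columns are the RPC tumours left of the RP tumours). Fos, Fosb, Junb and Egr1 share the red of RP tumour 3 and the blue of RP tumour 1, while Nr4a2 and Nr4a3 are higher in several RPC tumours.

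The 3 NR4A genes encode orphan nuclear receptors that bind DNA without a known hormone and are induced by cyclic AMP in endocrine cells. Nr4a2, also called Nurr1, had 94.0, 38.0, 43.5, 68.5 and 57.4 CPM in the RPC tumours, against 38.2, 27.1, 26.3, 18.2, 16.1, 39.1 and 45.8 CPM in the RP tumours. RPC tumours 1, 4 and 5 lay above every RP tumour, RP tumours 2 to 5 lay below every RPC tumour, and the rest overlapped. The mean was 60.3 ± 22.3 CPM in RPC and 30.1 ± 11.2 CPM in RP tumours (SD, n = 5 and 7), a 2.0-fold difference (1.0 ± 0.29, log2 ± SE). It rose in the RPC tumours by edgeR's test (adjusted p = 0.0309). The call was lost without RP tumour 2 (0.98, adjusted p = 0.0591), RP tumour 4 (0.91, 0.0599), RPC tumour 1 (0.79, 0.0884) or RPC tumour 5 (1.01, 0.0551), and over all alternatives the adjusted p ran between 0.00632 and 0.383.

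Marker genes of other cell types differed between the genotypes too. Summed follicular marker levels were 55.7 to 5760 CPM (median 883) in the RPC tumours and 1640 to 9300 CPM (median 8590) in the RP tumours. Of 10 tested follicular genes edgeR called 2 lower in the RPC tumours and had 8 lower at an unadjusted p under 0.05. DESeq2 called 7 of them lower and voom 9. Slc26a4 and Duoxa2 were at 0 in some tumour. Tg, the thyroglobulin gene, averaged 1667 ± 2226 CPM in RPC and 6866 ± 2607 CPM in RP tumours (SD, n = 5 and 7, adjusted p = 0.122). Summed adipocyte markers were 27.7 to 87.8 CPM in the RPC tumours and 48.4 to 1490 CPM in the RP tumours, and 7 of 7 were called lower. Of the smooth muscle markers 3 of 5 were called lower, with summed levels of 39.4 to 432 CPM in the RPC and 71.2 to 254 CPM in the RP tumours. The 1 lymphocyte marker tested, of 7 listed, was also called lower, and the list summed to 3.3 to 5.72 CPM in the RPC and 10.6 to 39.4 CPM in the RP tumours. Of the endothelial markers 1 of 8, of the fibroblast markers 1 of 7 and of the C cell markers 1 of 10 were called lower, and no macrophage, neutrophil or skeletal muscle marker was called by edgeR. At an unadjusted p under 0.05 edgeR had 1 macrophage marker lower and none of the neutrophil or skeletal muscle markers; DESeq2 called 1 macrophage marker lower and voom none of the 3 lists. In a fit with the follicular score as covariate, Nr4a2 was 1.24 ± 0.50 (log2 ± SE, adjusted p = 0.383) and none of the 9 genes was called by edgeR. At an unadjusted p under 0.05 that fit had 1 gene higher and 4 lower, namely Junb (-1.56 ± 0.42), Egr1 (-1.43 ± 0.45), Fos (-1.44 ± 0.56) and Fosb (-1.84 ± 0.74), each with an adjusted p of at least 0.219. Over all 14989 genes tested it called 4 and had 1615 at an unadjusted p under 0.05. The same fit had 8 of 8 macrophage markers lower at that unadjusted threshold, with 0 called. The part of the marker shifts in these results was not tested, and in bulk tissue fewer cells of a type and less RNA per cell cannot be told apart.

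Nr4a1, or Nur77, had 22.7, 15.3, 15.1, 24.0 and 19.1 CPM in the RPC tumours, against 5.55, 13.5, 26.2, 18.8, 15.8, 15.1 and 10.2 CPM in the RP tumours. The ranges overlapped and the difference was 0.36 ± 0.29 (log2 ± SE, adjusted p = 0.399). Nr4a3, or Nor1, was the only one of the 10 below the low-count filter, with 41, 4, 9, 17 and 37 counts in the RPC tumours against 6, 0, 2, 4, 38, 6 and 3 counts in the RP tumours. That is 2.58, 0.367, 0.425, 1.51 and 2.68 CPM in the RPC tumours, against 0.422, 0, 0.208, 0.231, 0.636, 0.487 and 0.190 CPM in the RP tumours. The 0 in RP tumour 2 is below what its depth resolves (floor of 3 counts). The 38 counts of RP tumour 5 came from the deepest library. In a fit without the filter it was called higher, at 2.18 ± 0.64 (log2 ± SE, adjusted p = 0.0434), a fitted value that depends on the prior count.

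Dusp1 encodes a phosphatase that switches off MAP kinases, and Crem a relative of CREB whose internal promoter gives the repressor ICER, which gene counts cannot separate from the other Crem transcripts. Dusp1 had 180, 84.6, 115, 300 and 110 CPM in the RPC tumours, against 69.0, 138, 292, 117, 112, 106 and 120 CPM in the RP tumours. RPC tumour 4 and RP tumour 3 were the highest of their groups, at nearly the same level, and the difference was 0.21 ± 0.36 (log2 ± SE, adjusted p = 0.699). It was -0.15 ± 0.34 without RPC tumour 4 and 0.52 without RP tumour 3. Crem had 27.7, 13.2, 20.5, 24.2 and 14.4 CPM in the RPC tumours, against 16.0, 22.9, 35.2, 22.5, 25.3, 36 and 27.5 CPM in the RP tumours. Its difference was -0.40 ± 0.23 (log2 ± SE, adjusted p = 0.227), the ranges overlapping.

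**Figure D3:**
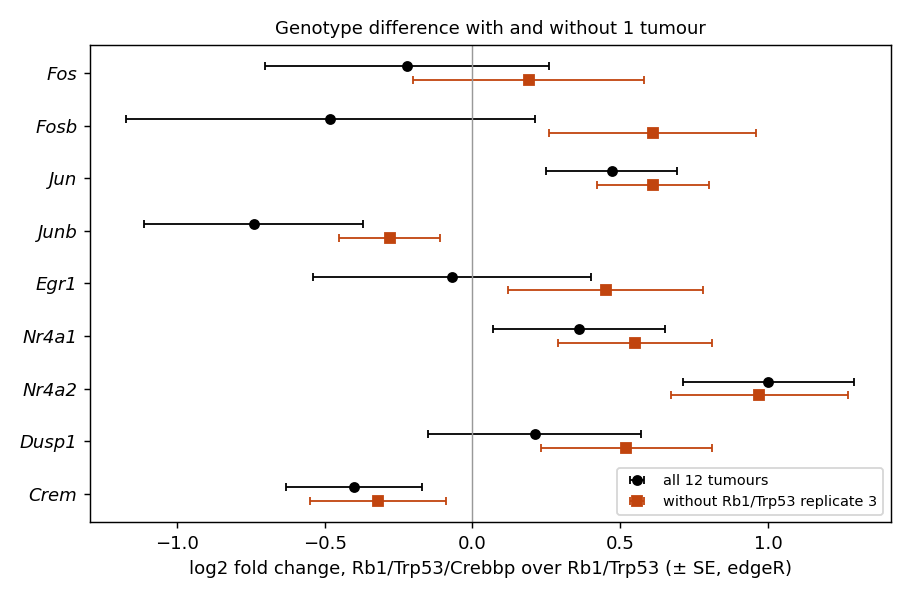
Log2 fold change, RPC over RP tumours, of the 9 tested genes from edgeR with all 12 tumours (black circles) and without RP tumour 3 (orange squares); bars are ± SE. Fos, Fosb and Egr1 lie below 0 with all tumours and above 0 without that tumour, while Nr4a2 is 1.0 with it and 0.97 without it.

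RP tumour 3 was the highest of the 12 tumours in 5 of the 10 genes (Fos, Fosb, Junb, Egr1 and Nr4a1). RP tumour 1 was the lowest in 6. The levels of RP tumour 3 were set against the median of the other 6 RP tumours. They were 11.9-fold for Fosb, 4.35-fold for Egr1, 3.56-fold for Fos and 3.50-fold for Junb. Dusp1, highest in RPC tumour 4, was 2.54-fold, Jun 1.89-fold, Nr4a1 1.84-fold and Crem 1.46-fold. Nr4a2 was 0.806-fold and the low-count Nr4a3 0.637-fold in RP tumour 3. Macrophage markers stood apart there as well: all 8 were highest in RP tumour 3, summing to 1460 CPM, while the RPC tumours reached at most 638 CPM and the other RP tumours at most 889 CPM. No macrophage marker was at 0 in any tumour. Fibroblast markers summed to 3260 CPM in RP tumour 3, against at most 1660 CPM in the RPC tumours and 1770 CPM in the other RP tumours, with 3 of 7 genes highest there. Endothelial (168 CPM) and neutrophil (18.8 CPM) sums were also highest there, but RPC tumour 5 was close, at 166 and 16.5 CPM. Smooth muscle, adipocyte, lymphocyte and skeletal muscle sums were not highest there. Follicular markers summed to 1640 CPM in RP tumour 3, the lowest of the RP tumours, with RP tumour 5 next at 6240 CPM. C cell markers summed to 97000 CPM there, with only RP tumour 5 lower among the RP tumours, at 88500 CPM. The part of these cells in the values of RP tumour 3 was not tested. Of the other immediate early genes 20 of 37 were highest in it, and of the heat shock genes 0 of 11. How many of all genes tested were highest in it was not counted. It was also the shallowest library, at 9.11 M counts.

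Levels of the genes were compared with each other over the 12 tumours, as log2 CPM, for all 45 pairs with permutation tests of 100000 resamples and Benjamini-Hochberg adjustment. Fos and Egr1 moved together most closely, with Pearson r = 0.92 (permutation p = 4e-05, adjusted p = 0.0018) and Spearman rho = 0.93 (p = 2e-05, adjusted p = 0.0009). Within the 7 RP tumours alone r was 0.90 (exact permutation p = 0.00198, adjusted p = 0.0446), 1 of 5 pairs called there. Some pairs were closer in that subset, most of all Fosb with Egr1 (r = 0.98, exact permutation p = 0.000397, adjusted p = 0.0179). For Fos with Egr1 without RP tumours 1 and 3, the 2 farthest from the median of Fos, r was 0.88 (permutation p = 0.00072). In all, 7 pairs had an adjusted p under 0.05 by Pearson's r, each positive, and 2 by Spearman's rho (Fos with Egr1, and Fosb with Nr4a1 at rho = 0.86); without RP tumour 3 it was 1 pair, Fos with Egr1. Among the AP-1 genes and Egr1 the other called pairs had a lower r without RP tumours 1 and 3. Narrowing the range in this way can by itself lower r, since for the first gene of each pair these are the lowest and highest tumours. Without them Fos with Junb had r = 0.46 (0.79 with all tumours), Fos with Fosb 0.32 (0.73), Fosb with Egr1 0.36 (0.76) and Junb with Egr1 0.28 (0.76). Dusp1 made the remaining 2 pairs, with Jun (r = 0.73, or 0.60, permutation p = 0.0527, without RPC tumours 1 and 4) and with Nr4a1 (r = 0.75, or 0.59, permutation p = 0.0759, without RP tumours 1 and 3), each with an adjusted permutation p of 0.0483 over all 12 tumours. Nr4a2 against Fos gave no call (r = -0.35, permutation p = 0.26, adjusted p = 0.432; rho = -0.41, permutation p = 0.185, adjusted p = 0.38). The 5 RPC tumours were too few for a correlation of their own.

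**Figure D4:**
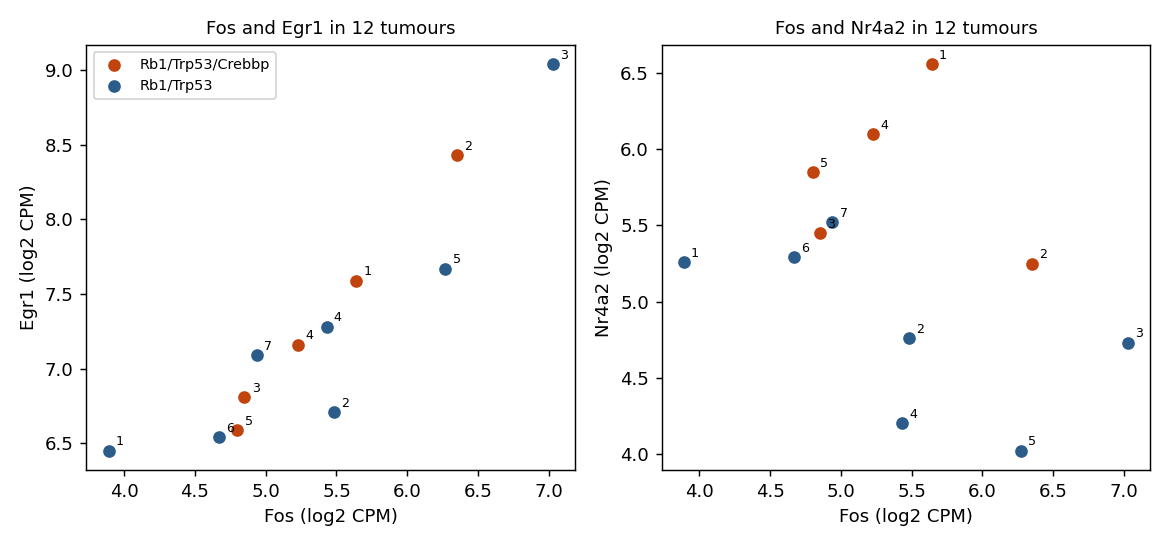
Log2 CPM of Fos against Egr1 and against Nr4a2, each point 1 of the 12 tumours, coloured by genotype. Egr1 climbs with Fos (r = 0.92), and Nr4a2 against Fos gives r = -0.35.

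Among 14569 genes with a mean of at least 1 CPM, those most like each of 3 members over the 12 tumours are given with r as a description; they share libraries and depth. Closest to Fos were Wdr36 (0.90), the immediate early gene Ier2 (0.88), Lrrc33 (0.88), Pstpip1 (0.86) and Tbk1 (0.85). Closest to Nr4a2 was Alpl, encoding tissue-nonspecific alkaline phosphatase (0.93), followed by Zfp672, Ntsr2, Rmnd1 and Cnnm4 (0.92 each). Alpl averaged 37.9 ± 18.4 CPM in the RPC and 14.1 ± 4.0 CPM in the RP tumours (SD, n = 5 and 7), a description only, since it was chosen for its likeness to Nr4a2 in the same tumours. Closest to Crem were Abtb1 (0.93), Hspbap1 (0.90), Krt18 (0.89), Tcp11l2 (0.88) and Slc35b3 (0.87).

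Around the set, lists of the pathway's other genes held 118 tested genes, of which 12 were called higher and 13 lower in the RPC tumours. The shares called in each list stand beside the 18.3% called over all genes tested, and no list was tested against that share. Upstream of CREB, 5 of 18 cyclic AMP and protein kinase A genes rose and none fell (27.8% called, median log2 fold change 0.16). Adcy1, an adenylyl cyclase that makes cyclic AMP, had 127, 274, 84.2, 85.4 and 237 CPM in the RPC tumours, against 81.2, 39.6, 19.3, 14.2, 64.5, 15.9 and 59.3 CPM in the RP tumours. The groups did not overlap, and the difference was 1.94 ± 0.48 (log2 ± SE, adjusted p = 0.0197). Prkar2a, a regulatory subunit of protein kinase A, averaged 55.5 ± 10.4 CPM in RPC and 32.6 ± 9.02 CPM in RP tumours (SD, n = 5 and 7, adjusted p = 0.0196). Pkig, a protein kinase inhibitor, was higher by 0.49 ± 0.13 (log2 ± SE, adjusted p = 0.0222) and Adcy3 by 0.74 ± 0.23 (0.0405). Leaving out RPC tumour 2 ended the calls of Prkar2a (adjusted p = 0.0526), Adcy1 (0.0604) and Pkig, which was also lost without RPC tumour 3 (at most 0.0745). Adcy3 lost its call in 9 of 12 such fits, all but those without RP tumour 1, RP tumour 3 or RPC tumour 4 (at most 0.1). Prkaca, the catalytic subunit, also rose, by 0.35 ± 0.11 (adjusted p = 0.0457), lost in 8 of 12; it is named because the count is small. Of 12 CREB factors and coactivators 1 was called (8.33%): Atf1, a CREB relative, averaged 54.3 ± 6.60 CPM in RPC and 41.5 ± 4.70 CPM in RP tumours (SD, n = 5 and 7, adjusted p = 0.0259), lost without RP tumour 6, RPC tumour 1 or RPC tumour 2 (at most 0.0908).

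Other CREB targets moved in both directions, 3 of 12 tested higher and 2 lower (41.7% called, median log2 fold change -0.53). Pde4b, a phosphodiesterase that degrades cyclic AMP, had 82.7, 121, 49.6, 68.5 and 65.2 CPM in the RPC tumours, against 30.3, 20.1, 27.2, 13.3, 35.1, 23.7 and 39.8 CPM in the RP tumours. It rose by 1.51 ± 0.26 (log2 ± SE, adjusted p = 0.0055) with no overlap. Areg, encoding the growth factor amphiregulin, rose by 2.17 ± 0.41 (adjusted p = 0.0075), averaging 33.1 ± 18.1 CPM in RPC and 7.36 ± 4.32 CPM in RP tumours (SD, n = 5 and 7). Th, the tyrosine hydroxylase of catecholamine synthesis, had 1.51, 0.550, 2.36, 1.33 and 1.67 CPM in the RPC tumours, against 25.7, 23.5, 23.4, 12.3, 16.2, 12.2 and 25.1 CPM in the RP tumours. It fell by 3.70 on the log2 scale (SE 0.34, adjusted p = 0.000276), and these 3 calls held in each fit that left out 1 tumour. Pck1, the gluconeogenic enzyme that adipocytes also make, fell by 3.81 (SE 0.99, adjusted p = 0.0233), lost without RPC tumour 1 or 2 (at most 0.0639). Pde10a, a further phosphodiesterase named because the count is small, rose by 1.06 ± 0.32 (adjusted p = 0.0376), lost in 8 of 12 such fits. Pck1 levels of 109, 79.3, 148 and 58.8 CPM stood in RP tumours 2, 4, 6 and 7, where summed adipocyte markers were 1040, 852, 1490 and 471 CPM, and the other tumours had at most 6.11 CPM. The part of adipocytes in it was not tested.

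**Figure D5:**
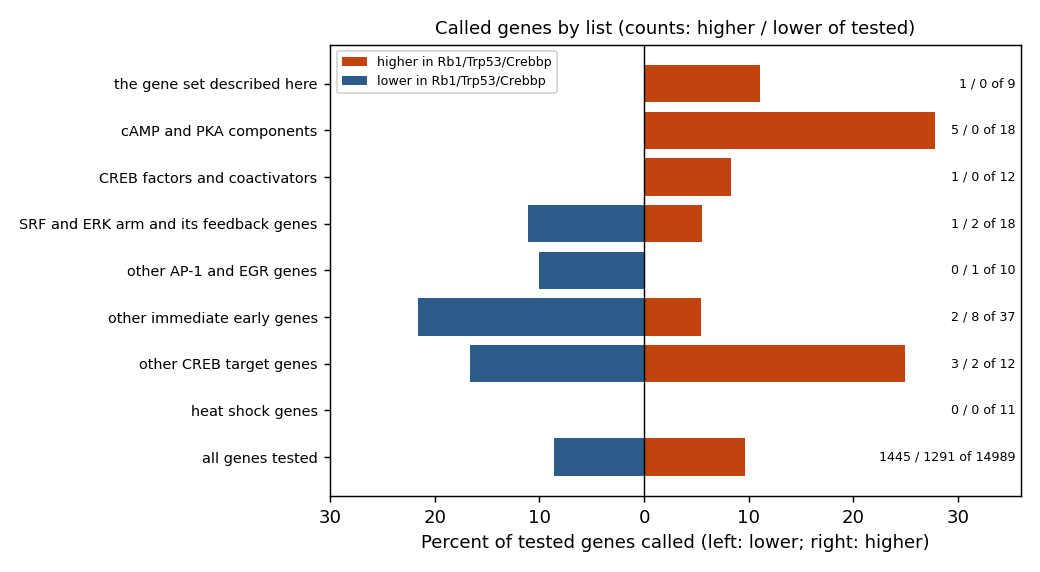
Percent of the tested genes in each list that were called higher (orange, right) or lower (blue, left) in RPC than RP tumours, with the counts printed at the right. The set described here has 1 of 9 called and the cyclic AMP and protein kinase A list 5 of 18, beside 1445 higher and 1291 lower of all 14989 genes tested.

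Of 37 other immediate early genes 2 rose and 8 fell (27% called, median log2 fold change -0.33). Trib1, a pseudokinase gene, averaged 49.9 ± 13.8 CPM in RPC and 93.5 ± 13.3 CPM in RP tumours, Zfp36l1, whose product promotes mRNA decay, 20.2 ± 12.2 CPM in RPC and 63.9 ± 17.5 CPM in RP, and Btg2, an antiproliferative gene, 119 ± 26.9 CPM in RPC and 229 ± 78.0 CPM in RP (SD, n = 5 and 7). The log2 fold changes were -0.91 ± 0.17, -1.66 ± 0.34 and -0.94 ± 0.22 (SE), with no overlap between the groups, and the calls held in each fit that left out 1 tumour. Klf2 fell by 1.08 (SE 0.27, adjusted p = 0.0208), lost without RPC tumour 1 (0.053). Zfp36, Ctgf, Dusp2 and Cyr61 were the others called lower, and lost the call in 6, 6, 9 and 9 of 12 such fits. The 2 called higher, named after their values were seen, were the neuronal activity genes Npas4, with 4.67 ± 1.14 CPM in RPC and 2.38 ± 0.793 CPM in RP tumours, and Homer1, with 10.6 ± 1.70 CPM in RPC and 7.11 ± 1.32 CPM in RP tumours (SD, n = 5 and 7). Npas4 lost its call in 6 and Homer1 in 5 of the 12 fits that left out 1 tumour. Among 10 tested AP-1 and EGR relatives 1 was called (10%): Mafk, a small MAF protein, fell to 32.7 ± 1.75 CPM in RPC tumours, against 51.7 ± 5.72 CPM in RP tumours (SD, n = 5 and 7, adjusted p = 0.00204). In the ERK arm, 1 of 18 genes rose and 2 fell (16.7%). Dusp4, another MAP kinase phosphatase, had 97.6, 86.4, 55.1, 78.4 and 141 CPM in the RPC tumours, against 16.2, 9.76, 75.7, 14.2, 4.22, 12.9 and 12 CPM in the RP tumours. RP tumour 3 alone lay within the RPC range, and the difference was 2.16 ± 0.57 (log2 ± SE, adjusted p = 0.0239), lost without RP tumour 4 or RPC tumour 1, 2 or 5 (at most 0.0557). Mapk3, encoding ERK1, and Spry1, a feedback inhibitor, had log2 fold changes of -0.37 ± 0.10 and -0.98 ± 0.30 (SE), both called and each lost in 7 of 12 such fits (at most 0.0755 and 0.0919). None of 11 heat shock genes was called by edgeR, with 1 at an unadjusted p under 0.05, Hsp90aa1 (0.56 ± 0.21, log2 ± SE); DESeq2 called 1 and limma's voom 2.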

How the data were processed

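RNA was extracted from tumours with TRIzol, and mRNA selected by oligo(dT) went into NEBNext Ultra libraries, per the labels' protocols. The deposited values are read counts, not normalized by the authors, with bcl2fastq 1.8.2, TopHat2 2.0.12, HTSeq 0.6.1 and the mm9 build named in the submitters' processing notes; the sources used here give neither the annotation nor the strand setting, so antisense reads cannot be told apart. The 5 summary lines of each table were left out; they held, per tumour, 13.1 to 17.6% of reads without a feature and 10.9 to 18.5% not unique. Counts were fitted with edgeR 4.0.16 in R 4.3.3 (filterByExpr with minimum count 10, TMM, robust quasi-likelihood F test, Benjamini-Hochberg over 14989 genes, called under 0.05), and CPM used TMM library sizes. Log2 CPM used a prior count of 2. DESeq2 1.42.0 and limma 3.58.1 were alternatives. In simulated counts for this comparison with 200 of 14989 genes changed, 60% of 2-fold and 85% of 4-fold changes were recovered, with 3 false among 148 calls. The changed genes were drawn at random, and the data called a larger share, 18.3%. The rates therefore need not hold for the set in these data. Transcript lengths came from GENCODE M21 and promoters from RefSeq, matched by symbol. Named genes were the 10 genes, up to 4 called genes with the smallest p per list (the gene with the smallest p where none was called) and the 5 closest genes by r for Fos, Nr4a2 and Crem, with Calca, Chga and Tg as markers. The genes, lists and rules were chosen with earlier results of these data known. Within each genotype, no pair of libraries agreed within sampling noise (lowest chi-square per degree of freedom 24.4).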

Additional observations from a re-analysis of the deposited data

Results flagged for a closer look

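In the RP group 4 genes had 1 tumour far above the other 6, in each case RP tumour 3. Fosb was 30.6 CPM there with the next tumour at 5.32, a gap of 0.883 of the group's range. Junb was 309 CPM with the next at 101 (0.8), Egr1 was 525 CPM with the next at 203 (0.736), and Dusp1 was 292 CPM with the next at 138 (0.691). The critical value for 7 tumours is 0.568, and for normally distributed values chance alone flags about 1 in 20 groups, of which 20 were searched. The gaps were taken on linear CPM, where that rate need not hold. On log2 CPM the gaps of Egr1 (9.04, next 7.67, lowest 6.45) and Dusp1 (8.19, next 7.11, lowest 6.11) fall under the critical value. All 4 come from the same tumour. All 8 macrophage markers were also highest in that tumour, at 1460 CPM in sum, and their part in these values was not tested.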

How the results depend on the processing

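The count of called genes in the set (1) became 2 with no low-count filter (Nr4a2 and Nr4a3), 2 with limma's voom and sample weights (Jun and Nr4a2), 0 with the follicular score as a covariate, 2 without RP tumours 1 and 3 together (Junb and Nr4a2), and ran from 0 to 2 leaving out 1 tumour. The pathway count (25) became 38 with DESeq2, 56 with voom, 1 with the follicular score, 48 without RP tumours 1 and 3 together and 9 to 32 leaving out 1 tumour. All genes called (2736) became 3985 with DESeq2, 6357 with voom and 4 with the follicular score (1615 at an unadjusted p under 0.05). They became 5315 without RP tumours 1 and 3 together and 1074 to 3510 leaving out 1 tumour. Correlated pairs (7 of 45) became 1 when each pair left out the 2 tumours farthest from the median of its first gene. They became 5 within the RP tumours alone. The 2 genotypes share replicate numbers 1 to 5, and the labels do not say whether the numbers pair the tumours. After removal of each genotype's mean, the correlation of same-numbered tumours ran between -0.056 and 0.16. Low values cannot exclude a pairing with a small effect on the counts. Fits with and without a replicate block used only the tumours numbered 1 to 5, so RP tumours 6 and 7 were left out. In those fits the pathway count was 10 with the block (9 unblocked) and all genes 463 (868 unblocked). The set was 1 in both. The unblocked counts were already below the 25 and 2736 of all tumours, so the drop is not a measure of the block. Direction reversed, never past the threshold, for Fos (0.02 with voom, 0.19 without RP tumour 3, 0.02 without RP tumours 1 and 3), Fosb (0.30, 0.61 and 0.50 in those fits, 0.02 with the block), Egr1 (0.24, 0.45 and 0.36, and 0.06, 0.00 and 0.08 without RPC tumour 3, 4 or 5) and Dusp1 (-0.15 without RPC tumour 4). Leaving out 1 tumour gave log2 fold changes of -0.56 to 0.19 for Fos, -0.68 to 0.61 for Fosb, -0.48 to 0.45 for Egr1, -0.88 to -0.28 for Junb (nearest 0 without RP tumour 3) and -0.15 to 0.52 for Dusp1. The cause of these moves was not tested. Precision is lowest for Fosb (SE 0.69, log2) and Fos (0.48), and Nr4a3 is limited by 0 to 41 counts per tumour.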
